A study of Mus musculus with 5 samples.

Results

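The genes described here are the Src family kinases Fgr, Lyn, Src, Fyn, Yes1, Lck and Blk with the related cytoplasmic tyrosine kinases Syk and Btk, followed over bone marrow progenitors and monocytes of the mouse. The 9 genes were chosen by name, with earlier results of these data known. Of them 7, 5 of the Src family with Syk and Btk, had a probe set carrying that gene symbol alone, out of 19938 genes named in this way. Lyn and Lck were not analysed here. RNA of 5 populations sorted from the marrow of untreated wild-type C57Bl/6 mice was hybridised to expression arrays, with 1 array per population. All 5 populations were lineage negative and carried CD115, the receptor for colony-stimulating factor 1. The monocyte-dendritic cell progenitor (MDP), from which both branches arise, was taken as CD117+ CD135+ cells. The common dendritic cell progenitor (CDP) was taken as CD117int CD135+ cells, and the common monocyte progenitor (cMoP) as CD117+ CD135- cells. Classical monocytes were Ly6C+ TremL4- cells and nonclassical monocytes Ly6C- TremL4+ cells. The labels give neither the age and sex of the mice nor whether cells of several mice were pooled.

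Src family kinases sit on the inner face of the plasma membrane, held there by fatty acids at their N terminus. In the resting state a phosphate on a tyrosine near the C terminus, placed there by the kinase Csk, keeps them folded and inactive, and the phosphatase CD45 (Ptprc) can remove it. When an activating receptor clusters, a Src family kinase phosphorylates the tyrosine motifs of its signalling chain. Syk then docks on these motifs through its SH2 domains, and the Tec family kinase Btk is recruited to membrane lipids, where it activates phospholipase C gamma 2. In monocytes and macrophages this relay serves Fc receptors, integrins and C-type lectins. The same Src family kinases also phosphorylate inhibitory receptors, which recruit phosphatases such as Ptpn6 (SHP-1).

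Values are the deposited ones on a log2 scale, so 1 log2 unit is 2-fold. A floor of 6.27, the median of all named genes over the 5 arrays, separates bright from dim values, and between 9831 and 10167 genes reached it on each array. A gene is called higher or lower in a comparison where the arrays differ by 1 log2 unit or more and the brighter of them reaches the floor. There are no replicates, so no difference has a replicate check and no test was made. With 1 array per population the precision of a difference cannot be estimated. In 46.6% of the 35556 probe sets some arrays hold exactly the same value, a property of the deposited table that no label explains. Values of different genes come from different probes and are not set against each other. The genes of the sort followed the gates, with Kit (CD117) at 10.11, 8.16 and 9.37 in MDP, CDP and cMoP, Flt3 (CD135) at 10.75, 10.74 and 6.40, and Treml4 at 11.78 in nonclassical monocytes. In bulk RNA of this kind, fewer cells with a transcript and less transcript per cell cannot be told apart.

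The 7 measured kinase genes fell into 3 kinds of profile. Fgr, Fyn and Syk were each highest in nonclassical monocytes. For Fgr and Syk both monocyte arrays lay above all progenitor arrays, whereas for Fyn the classical monocyte did not. Btk was well above the floor everywhere and nearly level. Src, Blk and Yes1 lay near or under the floor on all arrays. The plot of the values by population shows these profiles side by side.

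**Figure D1:**
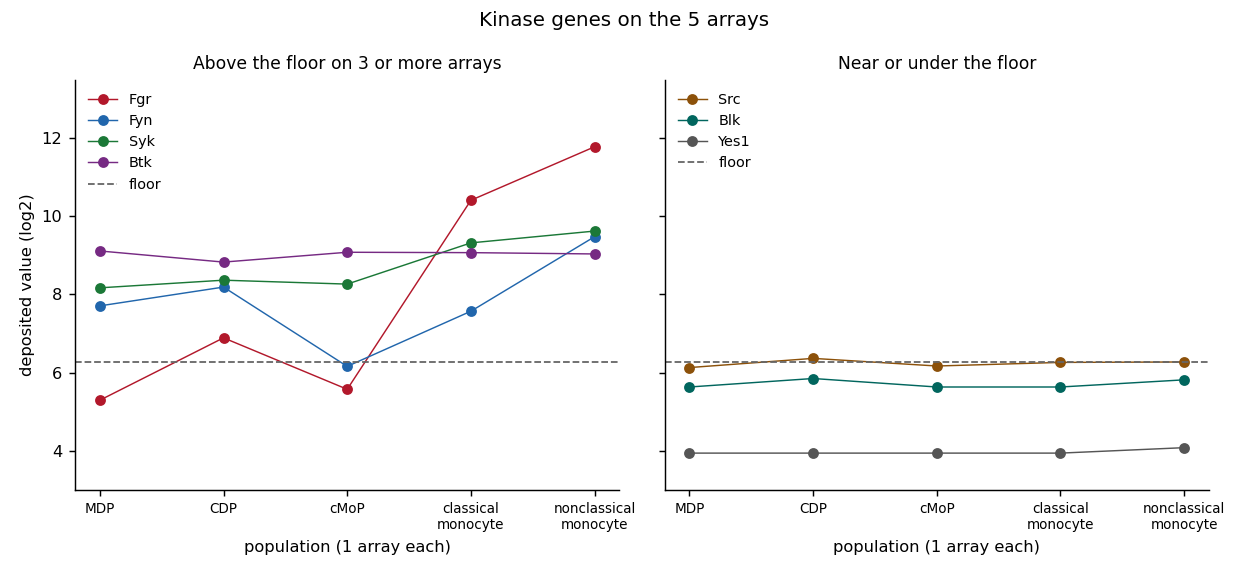
Deposited log2 values (vertical axis) of the 7 measured kinase genes on the 5 arrays (horizontal axis, 1 array per population), with the floor of 6.27 dashed. Lines only join the points of 1 gene, and heights of different genes are not comparable; Fgr spans 6.49 log2 units, Fyn 3.32, Syk 1.45 and Btk 0.28.

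Fgr, a Src family kinase largely confined to myeloid cells, had the widest span. It was at 5.29 in MDP, 6.89 in CDP, 5.57 in cMoP, 10.41 in classical monocytes and 11.78 in nonclassical monocytes. MDP and cMoP were thus under the floor, CDP a little above it, and both monocyte arrays far above all progenitors. The lower monocyte value exceeded the highest progenitor value by 3.52. Of the 11058 genes that reached the floor on an array, 20 including Fgr had a span as large as its 6.49 log2 units (0.181%). The 2 neighbours in its order that lay within 1 log2 unit of each other were cMoP and MDP, which differed by 0.28.

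Fyn, a more widely distributed Src family kinase known from T cells and neurons, had another order. Its values were 7.71 in MDP, 8.19 in CDP, 6.16 in cMoP, 7.57 in classical monocytes and 9.48 in nonclassical monocytes. The cMoP array alone was under the floor, and the nonclassical array exceeded the next, CDP, by 1.29. Between these ends CDP, MDP and the classical monocyte followed each other at distances of 0.48 and 0.14, within the threshold. The monocyte and progenitor arrays were therefore not separated for Fyn. Its span of 3.32 was matched or exceeded by 3.58% of genes past the floor.

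Syk, the kinase that reads phosphorylated receptor motifs, was above the floor on every array. It had values of 8.17 in MDP, 8.36 in CDP, 8.26 in cMoP, 9.32 in classical monocytes and 9.62 in nonclassical monocytes. The 3 progenitor arrays lay within 0.20 of each other, and both monocyte arrays were above them. The classical monocyte exceeded CDP, the highest progenitor, by 0.96, just under the threshold of 1. A span as wide as its 1.45 was met in 21.6% of genes past the floor.

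Btk, the Tec family kinase whose loss in people blocks B cell development, was at 9.11 in MDP, 8.83 in CDP, 9.08 in cMoP, 9.07 in classical monocytes and 9.04 in nonclassical monocytes. CDP was the lowest array, and the other 4 lay close together. The span of 0.28 log2 units was exceeded or equalled by 86.0% of genes past the floor, against a median span of 0.75 over those genes. It was 0.36 with each array centred on its median and 0.27 after quantile normalization.

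The remaining 3 members gave little signal to compare. Src, the kinase for which the family is named, lay between 6.13 in MDP and 6.36 in CDP, with CDP and the nonclassical array at or above the floor. Blk, a kinase of B cells, was under the floor on all arrays, between 5.63 and 5.85, and its values in MDP, cMoP and the classical monocyte were identical. Yes1, a broadly distributed relative of Src, lay between 3.93 and 4.07, with the same value on 4 arrays. At values this close to or under the floor a difference may not be detectable, and none is read from them.

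Among the progenitors Fgr and Fyn were called in some comparisons and Syk and Btk stayed within the threshold. In CDP against MDP, 1 of 5 members past the floor was called higher, Fgr by 1.60, beside 1.15% of all 10416 genes past it. A difference as large as this 1.60 was seen in 0.624% of genes, but it rests on an MDP value under the floor. With MDP set to the floor it is at least 1.54-fold, a bound below the 2-fold of the threshold. Fyn differed by 0.48, Syk by 0.20 and Btk by -0.28. In cMoP against MDP, 1 of 3 members past the floor was called lower, beside 1.4% of all genes past it. This was Fyn, by a difference of -1.55 (at least 2.71-fold lower). Fgr was under the floor on both arrays.

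Between the committed progenitors both Fyn and Fgr were lower in cMoP than in CDP. Of the 5 members past the floor these 2 were called lower, against 2.2% of all 10441 genes past it. Fyn differed by -2.03 (at least 3.78-fold lower) and Fgr by -1.32 (at least 1.54-fold lower). The Fgr value in cMoP lay under the floor, and its bound is again below the 2-fold of the threshold. These 3 comparisons share arrays, so the high CDP value of Fgr enters the first and the third, and the low cMoP value of Fyn the second and the third. With a floor at the upper quartile of all named genes, 7.93, the Fgr calls and the Fyn call in cMoP against MDP ended, since no array in them reached it. Some markers of other cells were also higher in CDP than in cMoP. The list of plasmacytoid dendritic cell markers (13 of 14 measured) had a mean value of 7.93 in CDP, 7.31 in MDP and 6.5 in cMoP. In cMoP against CDP 6 were lower and 0 higher of 8 past the floor (75% lower, beside 2.2% of all genes). In CDP against MDP 4 were higher and 1 lower of 9 (44.4% and 11.1%, beside 1.15% and 1.06% of all genes). The lower one was Dntt, at 9.61 in MDP, 8.41 in CDP and 3.89 in cMoP. Tlr7 was also higher in MDP (6.41) than in CDP (5.99), within the threshold. Of the T and NK cell list 5 genes passed the floor in cMoP against CDP, and 1 was called. It was Klrd1, an NK cell receptor, at 8.0 in CDP and 4.55 in cMoP. Ncr1, Klrb1c, Eomes and Gzmb were under the floor on all arrays, and Prf1 was at 6.43 and 6.40. The part of plasmacytoid dendritic cells or NK cells in the Fyn and Fgr values was not tested.

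Of the 7 comparisons made, those without MDP had their largest difference of a measured kinase in classical monocytes against cMoP. Here 3 of the 4 members past the floor were called higher and 0 lower. Of all 10305 genes past the floor, 7.01% were called higher and 4.4% lower. Fgr was higher by 4.84, at least 17.7-fold with cMoP set to the floor, and 0.126% of genes had a difference as large. Fyn was higher by 1.41 (at least 2.46-fold) and Syk by 1.06 (2.08-fold). Fgr and Fyn passed the floor here only through the monocyte array. The Syk difference was 0.96 after quantile normalization, which ended its call. A floor at the upper quartile ended the call of Fyn here too. Btk differed by -0.01.

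In nonclassical monocytes 2 of the 5 members past the floor were called higher than in classical ones, and 0 lower. Over all 10503 genes past the floor 3.55% were called higher and 9.82% lower. Fyn was higher by 1.91 (3.75-fold) and Fgr by 1.37 (2.59-fold), with both arrays of each above the floor. Differences as large were seen in 4.50% and 7.83% of genes. Syk was within the threshold at 0.30 and Btk at -0.03. Fgr and Fyn were also the 2 members that led the nonclassical array by 1 log2 unit or more over the next array, as 2.88% of genes did.

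Against MDP the classical monocyte had 2 of 4 members past the floor higher, Fgr (5.12) and Syk (1.15), beside 8.56% of all genes past it. Fyn was at -0.14. The nonclassical monocyte had 3 of 5 members past the floor higher, beside 9.01% of all genes past it. They were Fgr (6.49, at least 45.7-fold), Fyn (1.77) and Syk (1.45). By the stricter rule that both monocyte arrays exceed all 3 progenitor arrays by 1 log2 unit, 1 of the 7 qualified, Fgr, as did 2.38% of genes. Syk, at 0.96, would join it with arrays centred on their medians, where that count is 2. The reverse pattern, with all progenitor arrays above the monocyte arrays, was met by 0 of the 7 and by 0.787% of genes. Blk and Yes1, under the floor on all arrays, could not meet either pattern. The map of differences gives every value.

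**Figure D2:**
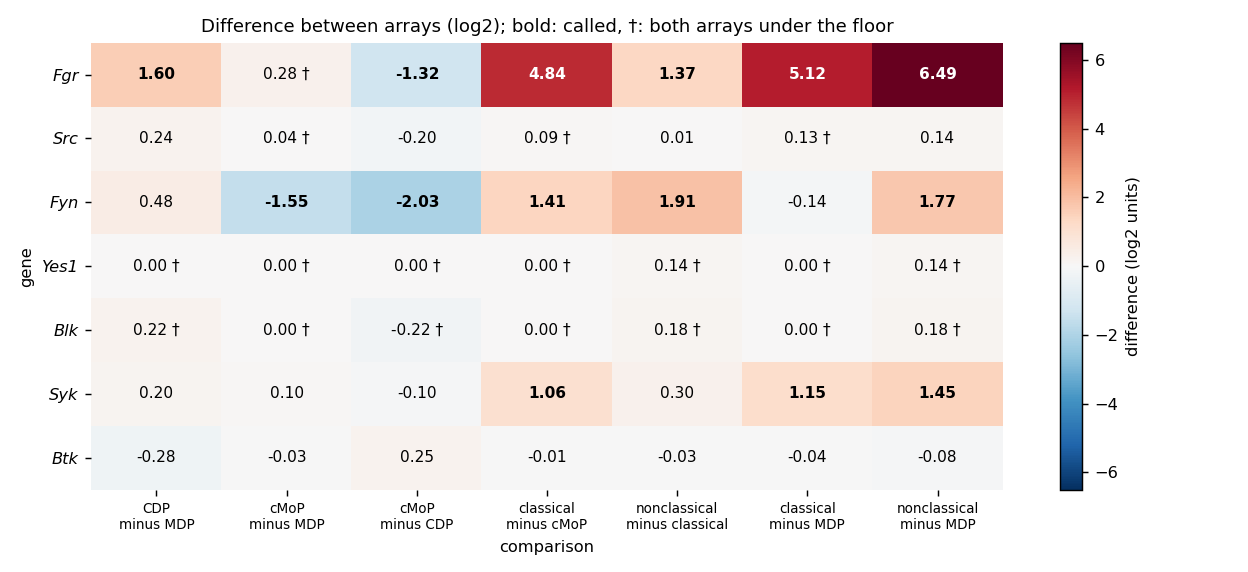
Log2 differences of the 7 measured kinase genes (rows) in the 7 comparisons (columns), as colour and number; bold marks a difference of 1 log2 unit or more with an array at the floor, and a dagger marks both arrays under it. The Fgr row holds the largest values, up to 6.49, and the Btk row runs from -0.28 to 0.25.

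Marker lists of B cells, of T and NK cells and of neutrophils were read on the same arrays. Of the B cell list, 13 of 14 genes were measured, and their mean value ran from 5.36 in classical monocytes to 5.74 in CDP, with 2 to 4 genes at or above the floor on each array. Pax5, Ebf1, Ms4a1 and Cd79a were under the floor on all arrays, whereas Cd79b was between 8.41 and 9.5 and Cd22 was at 7.23 in CDP. Vpreb1 was also above the floor on all arrays (6.45 to 6.98), and Igll1 in CDP (6.34) and cMoP (6.54). Of the T and NK cell list, 15 of 16 were measured, with means from 5.26 in classical monocytes to 5.60 in CDP and 2 to 5 genes at or above the floor on each array. Cd3e, Cd3d, Cd3g, Zap70 and Ncr1 were under the floor on all arrays. Of the same list, Cd247 (6.68 to 6.86) and Prf1 (6.40 to 6.43) were above it on all arrays, and Klrd1 in CDP. The neutrophil list (13 of 13 measured), part of which monocytes and their progenitors also transcribe, had means of 7.02 in MDP, 6.76 in CDP, 7.65 in cMoP, 8.13 in classical and 6.30 in nonclassical monocytes. In classical monocytes against cMoP, where Fgr differed by 4.84, 9 of its genes passed the floor and were called higher in 4 cases and lower in 3, among them Mmp8 (4.26), S100a9 (3.66), Mpo (-2.42) and Elane (-2.35). In nonclassical against classical monocytes 0 genes of the neutrophil list were higher and 5 lower of 8 (62.5% lower). Of all genes 3.55% were higher and 9.82% lower. Ly6g, its defining member, was between 4.69 and 4.75. The part of any of these cells in the kinase values was not tested.

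The 250 bases before the start of the 3 kinase genes that differed and of Btk, which stayed level, are given here, since they set the start regions of genes with different profiles side by side. They come from RefSeq on GRCm38.p6, whose promoter table holds 7 of the 9 genes (Lck among them, which has no values here). Each is written 5′ to 3′ on the strand of the gene. The windows are chr4:132973845-132974094 (plus strand) for Fgr, chr10:39369549-39369798 (plus strand) for Fyn, chr13:52583187-52583436 (plus strand) for the upstream of 2 Syk starts, and chrX:134583141-134583390 (minus strand) for Btk. Capitals mark letters that match a searched motif.
Fgr: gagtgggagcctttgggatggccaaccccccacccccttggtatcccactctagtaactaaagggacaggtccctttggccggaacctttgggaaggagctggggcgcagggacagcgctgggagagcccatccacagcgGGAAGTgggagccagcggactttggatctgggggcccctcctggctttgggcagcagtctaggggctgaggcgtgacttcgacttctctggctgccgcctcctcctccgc
Fyn: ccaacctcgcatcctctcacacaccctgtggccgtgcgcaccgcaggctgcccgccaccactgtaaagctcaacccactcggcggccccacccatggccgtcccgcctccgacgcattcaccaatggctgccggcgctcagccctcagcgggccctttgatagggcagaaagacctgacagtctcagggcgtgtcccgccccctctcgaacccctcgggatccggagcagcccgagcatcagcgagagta
Syk: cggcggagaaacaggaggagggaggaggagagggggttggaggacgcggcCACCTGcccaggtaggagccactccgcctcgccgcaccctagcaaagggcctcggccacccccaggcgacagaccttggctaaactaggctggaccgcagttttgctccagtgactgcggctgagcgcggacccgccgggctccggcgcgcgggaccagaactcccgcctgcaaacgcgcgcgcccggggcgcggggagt
Btk: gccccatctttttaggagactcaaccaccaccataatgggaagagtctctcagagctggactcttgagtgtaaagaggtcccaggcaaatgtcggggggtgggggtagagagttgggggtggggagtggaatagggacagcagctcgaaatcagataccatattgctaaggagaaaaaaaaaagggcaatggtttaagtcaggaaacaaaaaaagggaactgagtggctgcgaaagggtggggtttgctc

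Both strands were searched for 5 motifs. They were GAGGAAGT and its inner part GGAAGT, which ETS factors such as PU.1 can bind, TTGCGCAA of C/EBP factors, CAGGTG of E proteins and ATTTGCAT, the octamer. The Fgr window holds GGAAGT once, starting 110 bases before the gene start, a match found in 19.7% of the 32851 promoter windows. The Syk window holds CACCTG, the reverse complement of CAGGTG, 200 bases before the start, and the window of the other Syk start holds CAGGTG at 144 bases. That motif is found in 17.2% of windows. The Fyn and Btk windows hold none of the 5, which says only that these letters are not there. The share of G and C was 64.4% in the Fgr window, 67.2% in that of Fyn, 71.6% and 47.6% at the 2 Syk starts and 49.6% in that of Btk. It was 82.8% for Src and 77.2% for Yes1, which lay near or under the floor, and the median over all windows was 52.4%. Btk was the single level gene well above the floor, so no relation of this share to the profiles is read.

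For each of the 3 genes that spanned 1 log2 unit or more, the other genes with the nearest profile were sought among 4056 genes of such a span. Likeness was the root mean square difference over the 5 arrays after each gene was centred on its own mean. Nearest to Fgr was the predicted gene Gm5150 (0.31), then Hpgd, which encodes an enzyme that inactivates prostaglandins (0.39), and Ms4a4a, a membrane protein (0.56). Gm5150 had values of 5.59, 6.27, 5.67, 10.16 and 11.77 in the order MDP, CDP, cMoP, classical and nonclassical monocyte. Nearest to Fyn were Cd244a, a receptor of the SLAM family (0.17), Kbtbd11 (0.19) and Tspan13, a tetraspanin (0.24). Cd244a was at 7.44, 7.97, 6.31, 7.59 and 9.55, with the same low point in cMoP as Fyn. Nearest to Syk were Man2b1, a lysosomal mannosidase (0.06), Flt3l, the ligand of Flt3 (0.06), and Atp2c1, a calcium pump of the Golgi (0.08). The Syk distances are small beside those of Fgr, whose span is far wider.

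**Figure D3:**
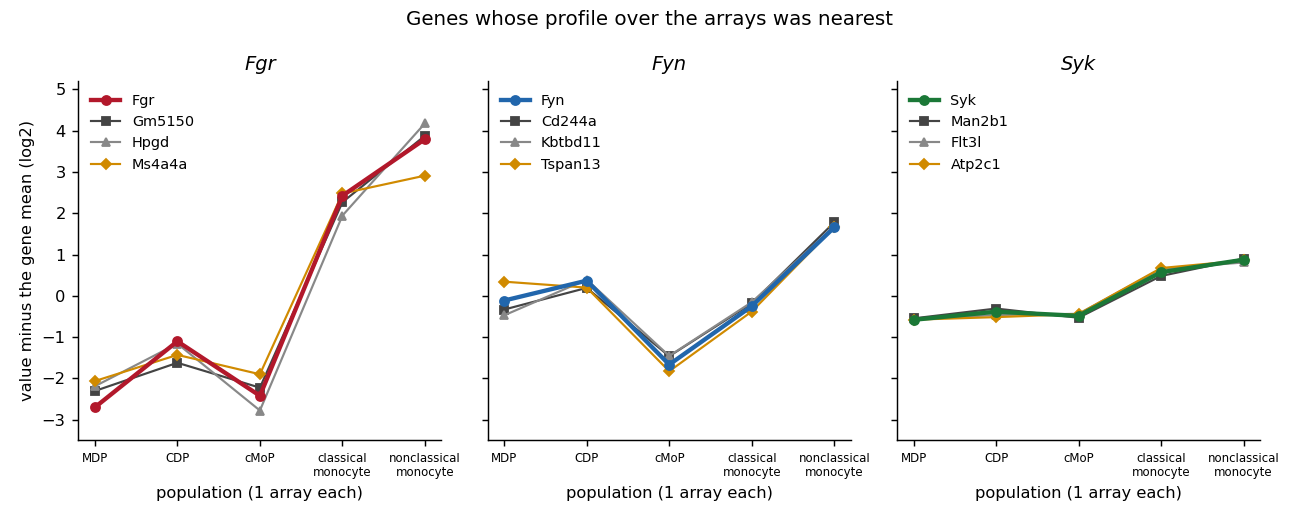
Values minus the gene's own mean over the arrays (vertical axis, log2) for Fgr, Fyn and Syk (thick lines) and the 3 genes with the nearest profile to each, by population (horizontal axis, 1 array each). Cd244a has the low cMoP point of Fyn, and Gm5150 follows Fgr at a root mean square difference of 0.31.

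The genes around these kinases were followed in 5 lists with 109 of 113 genes measured. Besides the kinases' relatives, they cover activating receptors and adaptors, inhibitory receptors, the enzymes and adaptors that regulate Src kinases and Syk, most of them as restraints, and their substrates. The lists were chosen with earlier results of these data known, so their shares beside those of all genes are a description. Over the union of the lists, 31 genes were higher and 3 lower in classical monocytes than in cMoP, of 92 past the floor. These are 33.7% and 3.26%, beside 7.01% and 4.4% of all genes, and the median difference was 0.67 against -0.0066 over all genes. In nonclassical against classical monocytes 15 were higher and 5 lower of 94 (15.96% and 5.32%, beside 3.55% and 9.82% of all genes), with a median of 0.21 against -0.09 over all genes. Among the progenitors fewer were called. In CDP against MDP 6 were higher and 4 lower of 88 (6.82% and 4.55%, beside 1.15% and 1.06% of all genes). In cMoP against MDP 8 were higher and 1 lower of 89 (8.99% and 1.12%, beside 1.44% and 1.4% of all genes). In cMoP against CDP 11 were higher and 5 lower of 92 (12.0% and 5.43%, beside 3.23% and 2.2% of all genes). Both monocyte arrays exceeded all progenitor arrays by 1 log2 unit for 19 of the 98 genes past the floor on an array (19.4%, beside 2.38% of all genes), and 0 had the reverse pattern, which 0.787% of all genes had.

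Receptors and adaptors that hand their signal to these kinases were more often higher than lower in classical monocytes against cMoP, as were all genes (7.01% against 4.4%). Of the activating list, which also holds integrin chains and Csf1r, 6 were higher and 2 lower of 17 (35.3% and 11.8%), with a median of 0.68. The largest differences were those of the integrin chains Itgam (3.60) and Itgb2 (2.88), of Fcgr1 (2.4), the high-affinity receptor for immunoglobulin G, and of Clec7a (1.42), the beta-glucan receptor. Fcer1g and Tyrobp, the adaptors whose motifs Src kinases phosphorylate and Syk binds, were within the threshold at 0.84 and 0.59. In nonclassical against classical monocytes 4 were higher and 1 lower of 18 (22.2% and 5.56%, beside 3.55% and 9.82% of all genes), with Fcgr4 at 5.41 and Trem1 at 1.46, and Clec5a, a lectin that signals through Tyrobp, at -5.43. Inhibitory receptors had 9 higher and 1 lower of 15 in classical monocytes against cMoP (60.0% and 6.67%, median 1.44), led by Lilrb4a (5.05), Pirb (3.51) and Pilra (2.33). Between the monocytes 4 were higher and 4 lower of 15 (26.7% each), Pilra (2.36) and Lair1 (2.34) being higher and Clec4a2 (-2.46) and Cd200r1 (-1.98) lower in the nonclassical array.

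The list of regulating enzymes and adaptors was above the floor on at least 1 array for all 21 genes. In classical monocytes against cMoP 4 were higher and 0 lower (19.05% higher, beside 7.01% of all genes, median 0.62). They were the receptor phosphatases Ptprj (2.02) and Ptprc (1.8), and the phosphatases Ptpn22 (1.25) and Ptpn12 (1.06). Not all of these restrain the kinases: Ptprc, and Ptprj in some cells, can remove the inhibitory phosphate and so activate Src kinases, whereas Ptpn22 acts against them. Csk, which places the inhibitory phosphate on Src kinases, was at 8.97, 8.42, 8.86, 9.43 and 9.91 in the order MDP, CDP, cMoP, classical and nonclassical monocyte, so neither monocyte step reached the threshold (0.58 and 0.48). Ptpn6 was at 9.99, 10.52, 10.50, 11.35 and 11.60, with steps of 0.84 and 0.26. In nonclassical against classical monocytes 3 were higher and 0 lower of 21 (14.3% higher, beside 3.55%, median 0.41), namely Cblb (1.98), a ubiquitin ligase, Pag1 (1.55), the membrane anchor of Csk, and Ptprj (1.24).

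Of the substrates and downstream genes 11 were higher and 0 lower of 29 in classical monocytes against cMoP (37.9% higher, beside 7.01% of all genes, median 0.66). Fyb, an adaptor of integrin signalling (3.26), Prkcb, a protein kinase C (2.24), Sh3bp2 (1.56) and Pik3r5, a regulatory subunit of phosphoinositide 3-kinase (1.40), had the largest differences. Plcg2, the phospholipase that Btk and Syk activate, was among the 11 at 1.26, with values of 9.20, 9.30 and 8.92 in the progenitors and 10.18 and 10.20 in the monocytes. Between the monocytes 3 of 30 were higher in the nonclassical array and 0 lower (10% higher, beside 3.55%, median 0.07), namely Rasgrp1 (3.61), Pik3ap1 (3.34) and Gab2 (1.26). Of the 18 measured relatives among cytoplasmic tyrosine kinases, 11 were past the floor in each of these comparisons and 1 was called in each (9.09%). Bmx, a Tec family kinase, was the single one higher in classical monocytes than in cMoP (1.35), and Ptk2b, a relative of focal adhesion kinase, the single one higher in nonclassical than in classical monocytes (1.62). Bmx was at 5.36 and 5.02 in MDP and CDP, 6.90 in cMoP and 8.26 and 8.30 in the monocytes, whereas Tec lay between 7.28 and 8.30 and its relative Btk was level.

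**Figure D4:**
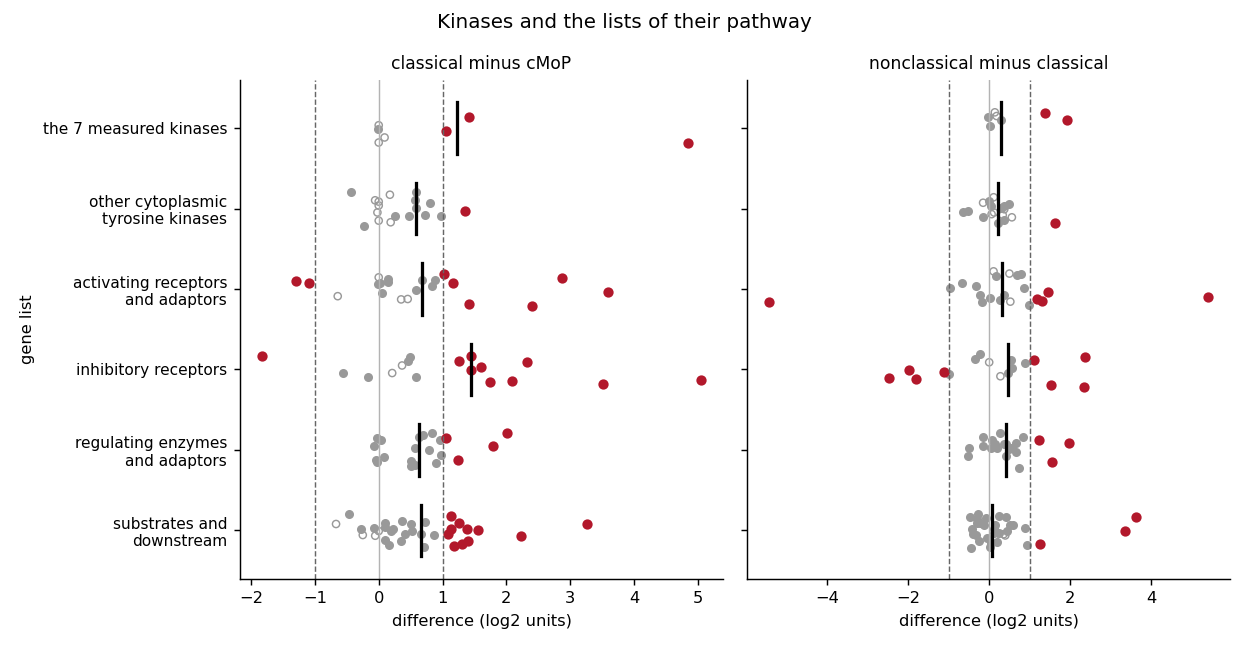
Log2 difference (horizontal axis) of each measured gene in the 7 kinases and the 5 lists (rows), for classical monocytes minus cMoP and nonclassical minus classical monocytes. Red points passed the threshold of 1 (dashed) with an array at the floor, open points had both arrays under the floor, and bars are medians of the genes past the floor, such as 1.44 and 0.46 for inhibitory receptors; vertical scatter within a row has no meaning.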

How the data were processed

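Per the labels' protocols, cells were sorted by flow cytometry, RNA extraction used the RNAqueous-Micro kit and labelling the Nugen Encore Biotin kit. The deposited table holds 1 log2 value per probe set and array; the base was read from its range of 1.59 to 14.24, and the labels name no background correction, normalization or software. Array medians lay between 6.02 and 6.16. Groups came from the sample titles.

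The annotation table of the platform gave the names: of 35556 probe sets, 21789 had 1 gene symbol, 1621 several and 12146 none listed there. A gene was taken from its probe set with the highest mean, and each member had 1. Folds that involve a value under the floor use the floor in its place and are lower bounds. The text names all members, the 8 pathway genes fixed by name where measured, up to 4 genes per list with the largest called differences, the 3 nearest profiles and genes of the sort. The members and lists were chosen with earlier results of these data known. The planned comparison of protein sequences was not made, as no protein table was used here. Python 3.11.15, pandas 2.3.3 and numpy 2.4.6 were used. The calls were tested on simulated differences in genes far above the floor, so calls near the floor or the threshold were not tried.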

Additional observations from a re-analysis of the deposited data

How the results depend on the processing

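Differences of single members kept their call, or its absence, in 332 of 343 combinations of difference and alternative setting. The other 11 were calls that were lost, and 0 called differences changed sign. Floors and thresholds leave a difference as it is, so a sign could change only under centring or quantile normalization. All 21 recomputed spans of members moved by less than 0.19 log2 units. Each member had 1 probe set, so averaging probe sets could not move its values. This setting gave 49 of the combinations and 7 of the spans. Centring moved the median difference of all genes by 0.11 in cMoP against MDP and by 0.11 in cMoP against CDP, and it raised the number of members with the monocyte pattern from 1 to 2, as did a threshold of 0.6 (2). With a floor at the upper quartile 0 members were called higher in CDP against MDP, 0 lower in cMoP against MDP and 1 lower in cMoP against CDP. With a threshold of 1.5 the members called numbered 1 (lower) in cMoP against CDP, 1 (higher) in classical monocytes against cMoP, 1 in nonclassical against classical monocytes and 1 in classical monocytes against MDP, and 0 led an array. For the pathway genes, a threshold of 0.6 gave 13 higher in CDP against MDP, 17 higher and 7 lower in cMoP against MDP, 10 lower in cMoP against CDP, 48 higher in classical monocytes against cMoP, and 26 higher and 9 lower in nonclassical against classical monocytes. A threshold of 1.5 gave, in the same order of comparisons, 2 lower, 5 higher and 0 lower, 7 higher and 2 lower, 14 higher and 1 lower, and 9 higher. The upper quartile floor gave 3 higher and 1 lower in CDP against MDP, 0 lower in cMoP against MDP, 6 higher and 1 lower in cMoP against CDP, and 3 lower in nonclassical against classical monocytes. These moves follow from the stricter or looser rules themselves. The shares of all genes under the alternative settings are not given here, so these counts of members and pathway genes are not set against them. Averaging the probe sets of a gene, or using no floor, changed no count of members or pathway genes by more than 1.5 times. No paired analysis was possible because each population has 1 array, and leaving out a replicate was not possible for the same reason. Array signal near the floor limits what can be said of Src, Blk and Yes1.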
